A study of Mus musculus with 8 samples.

Results

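The TNF superfamily joins cytokine-like ligands with the receptors that bind them. Of these genes, 10 were examined in EpCAM+ cells of mouse gastric tumors with Yap1 intact or targeted for deletion. They are the ligands Tnfsf9 and Tnfsf10 and the receptors Tnfrsf1a, Tnfrsf1b, Tnfrsf11b, Tnfrsf12a, Tnfrsf21, Tnfrsf22, Tnfrsf23 and Ltbr. They were chosen by gene symbol, and all 10 were found among the 27179 entries of the count table. Antral tumors of 4 mice of the Gp130FF;Yap1WT group and 4 of the Gp130FF;Yap1KO group were dissociated, cells positive for EpCAM, a protein of epithelial cell surfaces, were isolated by flow cytometry, and their bulk RNA was sequenced as 1 library per mouse. All 8 mice were homozygous for the Gp130 knock-in that drives gastric tumor growth (Gp130FF) and were 18 weeks old by the labels, which place every mouse 3 days after tamoxifen. The paper's methods give the same age, whereas its results and figure legend give an older age for the sequenced tumors. Per the methods, both groups carried the Tff1:CreERT2 transgene and floxed Yap1, Yap1KO mice received tamoxifen and Yap1WT mice received vehicle, whereas the labels write Yap1WT and Yap1 flox/flox as genotypes. If only Yap1KO mice received tamoxifen, effects of the drug or of active Cre cannot be told apart from those of Yap1 loss. The Cre recombinase is driven by the Tff1 promoter, which is active in surface mucous (foveolar) cells. From Tff1 expression in these tumors, the paper infers that deletion also reached tumor epithelial, parietal, chief, mucous neck, neuroendocrine and tuft cells. Sorted epithelial cells without active Cre can keep Yap1. With RNA from bulk samples, fewer cells of a type and less RNA per cell cannot be told apart.

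Ligands of this superfamily are made as trimers at the cell surface or shed from it, and they cluster their receptors on the same or on neighboring cells. Some receptors carry a cytoplasmic death domain that recruits adaptors and caspases, others bind TRAF adaptors and feed the NF-kB pathway, and decoy receptors bind a ligand without passing on its signal. In the stomach, epithelial cells, immune cells and stroma all make members of the family, which is best known for its part in inflammation, cell death and lymphoid tissue.

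Total counts were 27607755 to 77483047 per Yap1WT library and 18229945 to 74278015 per Yap1KO library, and the sex pattern of Xist and Ddx3y was female in 3 of the 8. The targeted gene Yap1 was at 65 to 79 CPM (counts scaled to the TMM-normalized library size) in the Yap1WT group and 21.5 to 30.1 CPM in the Yap1KO group, a log2 fold change of -1.51 ± 0.13 (SE, edgeR adjusted p = 0.000208). Summed over its 7 genes, the epithelial list was at 10300 to 12400 CPM per Yap1WT library and 9650 to 12100 CPM per Yap1KO library, with Krt8 and Krt19 among them, so the sorted cells carried the label's defining genes. Of the 7 epithelial genes 1 was higher and 0 lower, and it was the sort marker Epcam, at 950 to 1050 CPM over Yap1WT and 1540 to 1780 CPM over Yap1KO (log2 fold change 0.76 ± 0.10, SE, edgeR adjusted p = 0.00188). Foveolar markers, such as Gkn1 and Gkn2, summed to 32400 to 65000 CPM per Yap1WT library and 22400 to 38800 CPM per Yap1KO library. By edgeR 4 of 9 were lower (8 at an unadjusted p under 0.05), beside 2.34% of all genes tested, and 9 of 9 fold changes were below 0. Other cell types were present at lower levels. Endothelial markers, such as Plvap and Pecam1, summed to 185 to 662 CPM per Yap1WT library and 620 to 1230 CPM per Yap1KO library. By edgeR 2 of 10 were higher (9 at an unadjusted p under 0.05), beside 3.52% of all genes tested, and 10 of 10 fold changes were above 0. Fibroblast markers, such as Col3a1 and Sparc, summed to 176 to 1050 CPM per Yap1WT library and 484 to 1490 CPM per Yap1KO library, with 0 of 12 called by edgeR (1 at an unadjusted p under 0.05) and 11 of 12 fold changes above 0. The macrophage and dendritic list (Cd14, Cd68) was at 42.5 to 85 CPM and 40.2 to 71.1 CPM, with Cd68 higher, and the neutrophil and mast cell list at 27.4 to 34.8 CPM and 34.9 to 46.6 CPM, most of its counts from Kit. The T and NK list (Ptprc, Trac) was at 5.7 to 12.7 CPM and 1.96 to 5.31 CPM, with Cd8a and Ncr1 at 0 in every library. Most of its counts came from Ptprc, which was not called (edgeR adjusted p = 0.151). Ptprc did not exceed 4.53 CPM in any Yap1KO library, and no Yap1WT library fell under 5.7 CPM. Trac, which did not pass the filter, went the other way, with a Yap1WT maximum of 0.118 CPM and a Yap1KO minimum of 0.244 CPM. The B and plasma cell list (Jchain, Cd79b) was at 0.0363 to 1.88 CPM and 0 to 2.97 CPM.

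Both ligands and 1 decoy receptor were higher in Yap1KO, and no member passed the test as lower. Over the 8 libraries, edgeR called 3 of the 10 members higher (Tnfsf9, Tnfsf10 and Tnfrsf23) and 0 lower at an adjusted p of 0.05. At an unadjusted p under 0.05 there were 4 higher and 2 lower (1548 and 1210 of all genes tested), and DESeq2 called 5 members against 3 with limma-voom. Among all 13508 genes tested, edgeR called 5.86%, which is 3.52% higher and 2.34% lower, DESeq2 called 11.1%, limma-voom 7.07% and edgeR with a replicate block 9.67%. All 10 members passed the filter on low counts.

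Tnfsf9 (gene ID 21950, GRCm38 chromosome 17, 57105287 to 57107758) encodes the ligand of the T cell costimulatory receptor Tnfrsf9. Its level in CPM was 10.9, 13.3, 4.69 and 12.2 in replicates 1 to 4 of Yap1WT, and 34.3, 23, 26.9 and 35.2 in replicates 1 to 4 of Yap1KO, the order kept for every gene here. Every Yap1KO library was above every Yap1WT library, and Yap1WT replicate 3 was the lowest of all. The means were 10.3 ± 3.85 CPM and 29.8 ± 5.89 CPM (SD, n = 4 mice each), 2.90-fold higher in Yap1KO, with a log2 fold change of 1.54 ± 0.30 (SE, edgeR adjusted p = 0.0138). The gene overlaps the noncoding RNA Gm11110 on the opposite strand, and since the library kit does not mark strand, reads from the shared stretch cannot be told apart. Of the 80-base windows of Tnfsf9 transcripts, 9.33% also occur in Gm11110.

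Tnfsf10 (gene ID 22035, GRCm38 chromosome 3, 27317077 to 27339665) encodes TRAIL, a ligand that can trigger apoptosis through death receptors. It was at 4.47, 3.52, 2.41 and 4.61 CPM in Yap1WT and 10.3, 11, 14.2 and 10.1 CPM in Yap1KO. The lowest Yap1KO library, at 10.1 CPM, was above the highest Yap1WT library, at 4.61 CPM. Mean levels were 3.75 ± 1.02 CPM and 11.4 ± 1.92 CPM (SD, n = 4 each), 3.04-fold higher in Yap1KO, and the log2 fold change was 1.61 ± 0.25 (SE, edgeR adjusted p = 0.00498). These values rest on 127 to 342 reads per Yap1WT library and 182 to 1087 reads per Yap1KO library.

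The receptors that bind TRAIL in the mouse are the death receptor Tnfrsf10b, the decoy receptors Tnfrsf22 and Tnfrsf23, which lack a working death domain, and the soluble decoy osteoprotegerin, the product of Tnfrsf11b. Tnfrsf22 and Tnfrsf23 lie next to each other on chromosome 7. Tnfrsf23 (gene ID 79201, 143665807 to 143686436) was at 20.7, 16.4, 10.1 and 21.4 CPM in Yap1WT and 59.9, 45.3, 45 and 70.5 CPM in Yap1KO. The 4 Yap1KO libraries were all above the 4 Yap1WT libraries. With means of 17.1 ± 5.18 CPM and 55.2 ± 12.4 CPM (SD, n = 4 each), Tnfrsf23 was 3.22-fold higher in Yap1KO, and its log2 fold change of 1.69 ± 0.24 (SE, edgeR adjusted p = 0.00294) was the largest of the 10 members. Its neighbor Tnfrsf22 (gene ID 79202, 143634808 to 143649675) was at 4.66, 3.7, 3.34 and 5.95 CPM in Yap1WT and 8.79, 5.69, 7.27 and 9.96 CPM in Yap1KO. Here the groups overlapped, since Yap1KO replicate 2 lay below Yap1WT replicate 4. The log2 fold change of Tnfrsf22 was 0.84 ± 0.27 (SE, edgeR adjusted p = 0.105), which did not pass the test, whereas DESeq2 gave an adjusted p of 0.0391. Fits with a replicate block and with a term for sex gave adjusted p = 0.0473 and 0.0368.

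The decoy receptors were also set against each other within each library. The ratio of Tnfrsf23 to Tnfrsf22 reads, a measure chosen after its values were seen, was 4.43, 4.42, 3.03 and 3.6 in Yap1WT and 6.81, 7.95, 6.19 and 7.08 in Yap1KO. The ratios of the groups did not overlap, and on the log2 scale they were 1.93 ± 0.27 and 2.80 ± 0.15 (SD, n = 4 each), a difference of 0.87, given without a test since the measure was chosen on these values. Tnfrsf22 and Tnfrsf23 are near-identical over part of their length. Of the 80-base windows of Tnfrsf22, 11.9% (497 of 4184) occur in Tnfrsf23, and 12.3% of the 4034 Tnfrsf23 windows occur in Tnfrsf22, so the split of reads between the pair is uncertain for that share. Of the Tnfrsf22 windows, 7.84% occur in genes that are not members, and how many of these also occur in Tnfrsf23 was not counted. An antisense gene, E230032D23Rik, lies across both on the opposite strand, and its transcripts share 0.496% of the Tnfrsf23 windows.

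Osteoprotegerin also blocks the bone-active ligand Tnfsf11, and its gene Tnfrsf11b (gene ID 18383, GRCm38 chromosome 15, 54250619 to 54278484) had the widest error of the members. It was at 32.3, 5.14, 7.99 and 7.62 CPM in Yap1WT and 11.4, 12.5, 6.38 and 19.1 CPM in Yap1KO. Yap1WT replicate 1 stood above every other library, and the remaining values of the groups were mixed. The log2 fold change was -0.12 ± 0.55 (SE, edgeR adjusted p = 0.939), and without Yap1WT replicate 1 it turned to 0.83 (edgeR adjusted p = 0.251). The death receptor Tnfrsf10b, no member of the set of 10, was at 24.0, 22.7, 23 and 30.2 CPM in Yap1WT and 28.5, 24.5, 34.9 and 41.4 CPM in Yap1KO, a log2 fold change of 0.37 ± 0.17 (SE, edgeR adjusted p = 0.267).

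**Figure D1:**
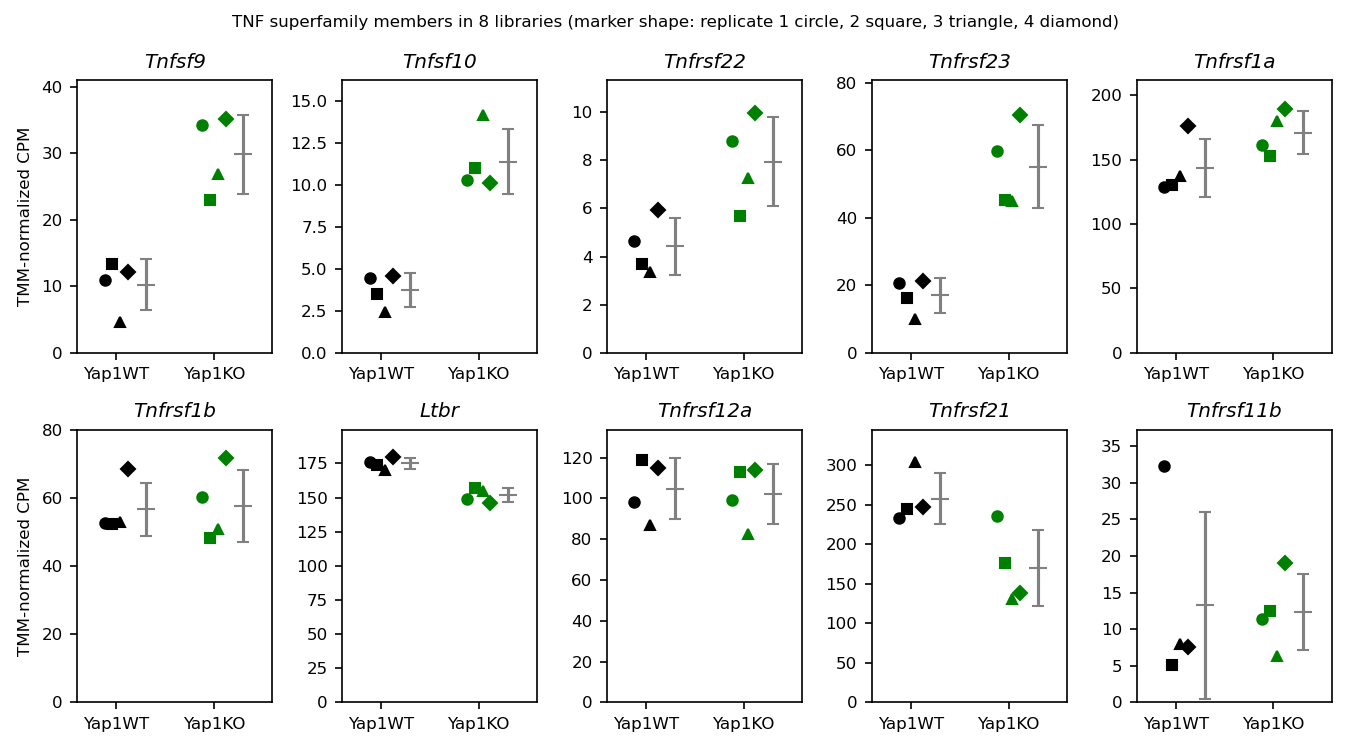
TMM-normalized CPM of the 10 genes (linear vertical axis from 0) in the 4 Yap1WT libraries (black) and the 4 Yap1KO libraries (green), with 1 panel per gene, marker shape for the replicate number and a grey bar for the mean with its SD. Tnfsf9, Tnfsf10 and Tnfrsf23 are higher in all 4 Yap1KO libraries, Ltbr lies lower in all 4, and Tnfrsf11b has 1 Yap1WT library at 32.3 CPM.

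Neither receptor for TNF itself passed the test. Tnfrsf1a (gene ID 21937, GRCm38 chromosome 6, 125349723 to 125362483), the death domain receptor found on most cells, was at 129, 130, 137 and 176 CPM in Yap1WT and 161, 153, 180 and 189 CPM in Yap1KO. Only Yap1WT replicate 4 reached into the range of the Yap1KO libraries. Its log2 fold change was 0.26 ± 0.13 (SE, edgeR adjusted p = 0.293). Tnfrsf1b (gene ID 21938, GRCm38 chromosome 4, 145212368 to 145246870), which has no death domain and signals through TRAF adaptors, was at 52.6, 52.4, 53 and 68.5 CPM in Yap1WT and 60.2, 48.2, 50.8 and 71.6 CPM in Yap1KO. In each group replicate 4 was the highest, and the ranges lay over each other. The log2 fold change was 0.03 ± 0.15 (SE, edgeR adjusted p = 0.951), and it changed sign when single libraries were left out. Their ligand Tnf was at 15.3, 4.6, 2.61 and 5.62 CPM in Yap1WT and 24.6, 13.9, 8.55 and 18.7 CPM in Yap1KO. Yap1WT replicate 1 lay among the Yap1KO libraries, and the log2 fold change of 1.22 ± 0.51 (SE) had an edgeR adjusted p of 0.208.

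Ltbr (gene ID 17000, GRCm38 chromosome 6, 125306571 to 125313885), the lymphotoxin beta receptor that activates the noncanonical NF-kB pathway, had the smallest error of the members. It was at 176, 174, 170 and 180 CPM in Yap1WT and 149, 157, 155 and 146 CPM in Yap1KO. Every Yap1KO library was below every Yap1WT library, with means of 175 ± 4.11 CPM and 151.7 ± 5.14 CPM (SD, n = 4 each). The log2 fold change was -0.21 ± 0.08 (SE, unadjusted p = 0.0278, edgeR adjusted p = 0.177), so this small difference did not pass the adjusted threshold in edgeR. Groups that did not overlap were found for 3 members with higher and 1 with lower values in Yap1KO, while 13.2% of all genes tested had such groups, 7.18% with higher and 6% with lower values. Ltb, which encodes a subunit of the main ligand of Ltbr, ranged from 0.435 to 1.16 CPM over the Yap1WT libraries and from 0.192 to 1.65 CPM over the Yap1KO libraries.

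Tnfrsf12a and Tnfrsf21 complete the receptors. Tnfrsf12a (gene ID 27279, GRCm38 chromosome 17, 23675445 to 23677449), the receptor of the ligand TWEAK and known from wound repair, was at 98.2, 119, 86.9 and 115 CPM in Yap1WT and 99.1, 113, 82.8 and 114 CPM in Yap1KO. Replicate 3 was the lowest in each group, and the groups covered almost the same range. Its log2 fold change was -0.04 ± 0.14 (SE, edgeR adjusted p = 0.919). Tnfrsf21 (gene ID 94185, GRCm38 chromosome 17, 43016555 to 43089188), a receptor with a death domain, was at 234, 245, 305 and 247 CPM in Yap1WT and 236, 177, 131 and 139 CPM in Yap1KO. Yap1KO replicate 1 lay within the Yap1WT range and the other three were below it. The log2 fold change was -0.59 ± 0.18 (SE, edgeR adjusted p = 0.0957). Without Yap1KO replicate 1 the edgeR adjusted p was 0.0204, and DESeq2 on all libraries gave an adjusted p of 0.0158.

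**Figure D2:**
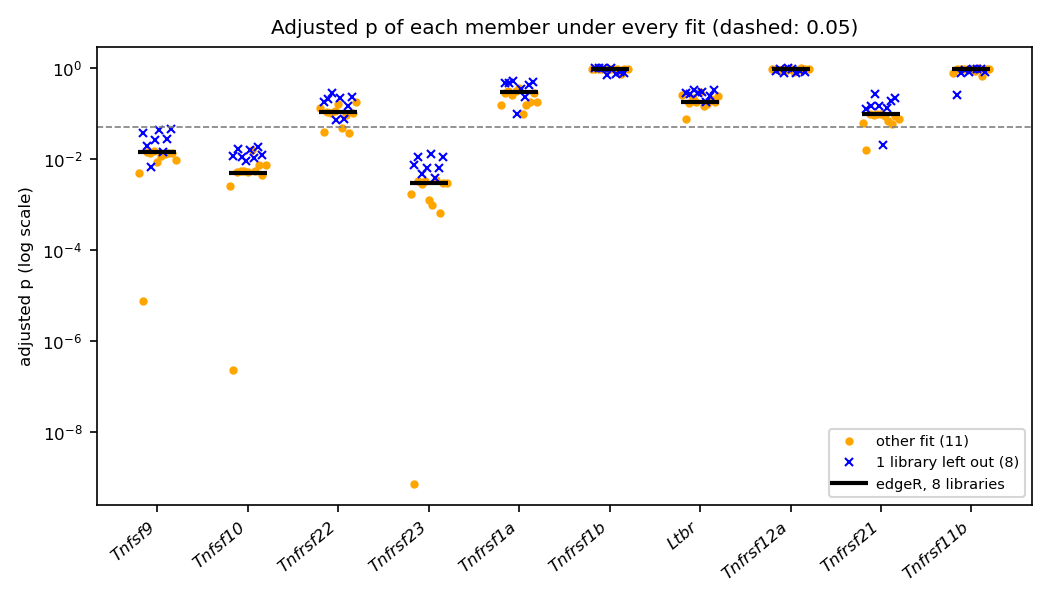
Adjusted p of each gene (log vertical axis) in the edgeR fit on 8 libraries (black bar), in 11 other fits (orange points) and in 8 edgeR fits that each leave out 1 library (blue crosses), with 0.05 as the dashed line. Tnfsf9, Tnfsf10 and Tnfrsf23 stay below the line in all 19 alternatives, and Tnfrsf22 and Tnfrsf21 cross it in 3 and 2 of them.

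The 3 called members held their calls in every alternative that was run. Over the 19 alternatives, the log2 fold change was 1.30 to 1.69 for Tnfsf9, 1.45 to 1.72 for Tnfsf10 and 1.5 to 1.86 for Tnfrsf23. The highest adjusted p with 1 library left out was 0.0461, 0.0183 and 0.0128, respectively. Mouse numbers fall into a lower series (replicates 1 and 2) and a higher series (replicates 3 and 4), which the labels do not call batches. The difference in mean log2(CPM + 0.5), Yap1KO minus Yap1WT, was above 0 in each series, at 1.18 and 1.95 for Tnfsf9, 1.32 and 1.70 for Tnfsf10, and 1.48 and 1.90 for Tnfrsf23. For Tnfrsf21 it was -0.23 in the lower and -1.02 in the higher series.

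The promoters of Tnfsf10 and Tnfrsf23 are shown because these genes moved in the same direction, and that of Tnfrsf1b as a family member that did not pass the test and whose window holds the most matches to the motifs searched. Of the 10 members, 7 had an entry among RefSeq promoter windows of GRCm38.p6, each with 250 bases before and 50 after the transcription start. Both strands were searched for 6 motifs. They were the interferon-stimulated response element ISRE (GAAA and GAAA with 2 bases of any kind between), the STAT site GAS (TTCNNNGAA) and the TEAD site (GGAATG). Also searched were the AP-1 site (TGANTCA) and the NF-kB site (GGGA and CC with 4 bases of any kind between). The last motif was a single p53 repeat (RRRCWWGYYY, with R for A or G, W for A or T, Y for C or T), not a whole p53 site. Among 32851 windows of this length, 3.44% held the ISRE, 8.3% the GAS, 14.7% the TEAD, 7.81% the AP-1, 20.7% the NF-kB letters and 8.36% the single p53 repeat. Sequences run 5′ to 3′ on the strand of the gene, bases are counted from 1 at the 5′ end, and capitals mark motif matches. The windows are chr3:27316827-27317126 on the plus strand for Tnfsf10, chr7:143685826-143686125 on the minus strand for Tnfrsf23 and chr4:145246821-145247120 on the minus strand for Tnfrsf1b. The Tnfrsf23 window lies inside the gene span given above, which reaches 143686436, so it belongs to a start within that span. Sequence before the outer end of that span was not searched.
Tnfsf10: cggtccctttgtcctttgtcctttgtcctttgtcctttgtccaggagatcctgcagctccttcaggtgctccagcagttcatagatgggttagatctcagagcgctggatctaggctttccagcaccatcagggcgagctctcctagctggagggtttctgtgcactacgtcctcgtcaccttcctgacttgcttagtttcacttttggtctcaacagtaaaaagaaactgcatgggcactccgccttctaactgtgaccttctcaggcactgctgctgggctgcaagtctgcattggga
Tnfrsf23: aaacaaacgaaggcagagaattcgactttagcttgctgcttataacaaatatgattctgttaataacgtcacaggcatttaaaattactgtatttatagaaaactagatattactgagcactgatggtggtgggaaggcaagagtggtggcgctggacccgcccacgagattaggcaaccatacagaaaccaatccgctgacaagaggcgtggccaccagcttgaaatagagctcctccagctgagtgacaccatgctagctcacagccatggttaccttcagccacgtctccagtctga
Tnfrsf1b: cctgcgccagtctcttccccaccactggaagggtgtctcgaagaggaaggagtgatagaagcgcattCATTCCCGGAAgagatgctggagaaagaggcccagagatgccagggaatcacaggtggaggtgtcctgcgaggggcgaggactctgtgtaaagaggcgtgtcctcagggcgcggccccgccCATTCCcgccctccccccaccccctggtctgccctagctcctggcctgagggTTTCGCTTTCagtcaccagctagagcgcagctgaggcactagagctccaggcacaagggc
No match to any of the 6 motifs was found in the Tnfsf10 and Tnfrsf23 windows. In the Tnfrsf1b window, the ISRE letters lie at bases 241 to 250 and the TEAD letters at bases 68 to 73 and 189 to 194, all on the opposite strand, and the GAS letters at bases 70 to 78 overlap the upstream TEAD match. The Tnfrsf1a window holds a GAS match at bases 7 to 15. The windows of Tnfrsf12a, Tnfrsf21 and Ltbr held no match. Outside the 10 members, the window of Eda2r, which was called higher, held an NF-kB match at bases 52 to 61. It also held a TEAD match at bases 219 to 224, and both lie on the opposite strand. These letters are a description of the windows and say nothing of binding.

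Levels of the members were compared with each other on the deposited log2 RPKM scale, which is per gene length. In Yap1WT the members fell into 2 tiers. The upper tier was Tnfrsf12a (6.75 ± 0.22), Ltbr (6.37 ± 0.05), Tnfrsf21 (6.13 ± 0.13) and Tnfrsf1a (6.03 ± 0.19, SD, n = 4 each), and the lower tier began with Tnfrsf1b at 3.51 ± 0.19. The median over 13819 genes was 2.97, and below Tnfrsf1b came Tnfsf9 (3.03 ± 0.57), Tnfrsf23 (2.36 ± 0.45), Tnfrsf11b (1.89 ± 1.15), Tnfrsf22 (1.02 ± 0.33) and Tnfsf10 (-0.33 ± 0.30). Neighbors in this order overlapped in range except Tnfrsf12a and Ltbr, Tnfrsf1a and Tnfrsf1b, and Tnfrsf22 and Tnfsf10.

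In Yap1KO, Tnfrsf12a (6.72 ± 0.21) was again at the top, followed by Tnfrsf1a (6.33 ± 0.14), Ltbr (6.20 ± 0.08) and Tnfrsf21 (5.53 ± 0.38). Tnfsf9 (4.58 ± 0.30) and Tnfrsf23 (4.04 ± 0.30) stood above Tnfrsf1b (3.54 ± 0.23), below which they had been in Yap1WT. Tnfsf10 was last in both groups, at 1.17 ± 0.22 in Yap1KO, below Tnfrsf11b (1.98 ± 0.71) and Tnfrsf22 (1.69 ± 0.43). Ranges of neighbors were apart between Ltbr and Tnfrsf21, between Tnfrsf21 and Tnfsf9, and between Tnfrsf1b and Tnfrsf11b.

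**Figure D3:**
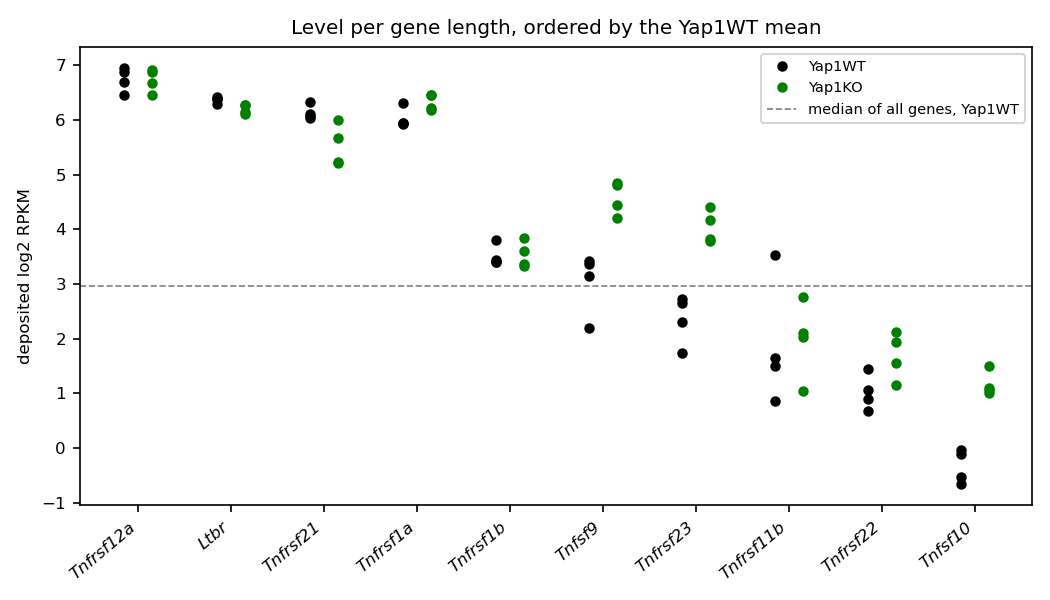
Deposited log2 RPKM (vertical axis) of the 10 genes in each Yap1WT library (black) and Yap1KO library (green), ordered by the Yap1WT mean. The receptors Tnfrsf12a, Ltbr, Tnfrsf21 and Tnfrsf1a lie well above the dashed median of all genes, 2.97 in Yap1WT, and Tnfsf10 is the lowest in both groups.

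Of the other 36 ligands and receptors listed, 12 passed the filter on low counts, and 2 were higher and 0 lower in Yap1KO by edgeR (4 higher and 2 lower at an unadjusted p under 0.05). Their median log2 fold change was 0.40, against -0.01 over all genes tested. Eda2r (chromosome X, 97333837 to 97377234), the receptor of the A2 form of ectodysplasin, was at 0.731, 1.2, 0.279 and 0.689 CPM in Yap1WT and 35.6, 11.5, 21.7 and 16.7 CPM in Yap1KO. No Yap1WT library exceeded 1.2 CPM and no Yap1KO library was under 11.5 CPM, with a log2 fold change of 4.90 ± 0.50 (SE, edgeR adjusted p = 0.000482). Tnfsf4, the ligand of the T cell costimulatory receptor Tnfrsf4, was at 2.47, 4.29, 2.48 and 2.18 CPM in Yap1WT and 11.5, 10.6, 13.2 and 19.4 CPM in Yap1KO. The groups did not overlap, and its log2 fold change was 2.25 ± 0.29 (SE, edgeR adjusted p = 0.00177).

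Other partners of called genes were measured as well. Tnfrsf9, the receptor of Tnfsf9, ranged from 0.367 to 2.08 CPM over Yap1WT and from 1.61 to 4.37 CPM over Yap1KO, a log2 fold change of 1.15 ± 0.54 (SE, edgeR adjusted p = 0.268). Tnfrsf4 did not pass the filter and had 0 to 27 reads per library. Eda, the ligand gene whose A2 form binds Eda2r, ranged from 4.18 to 9.91 CPM over Yap1WT and from 3.06 to 4.85 CPM over Yap1KO, and its log2 fold change was -0.84 ± 0.31 (SE, edgeR adjusted p = 0.151). Among the other uncalled genes, Fas, the death receptor of Fasl, had a log2 fold change of 0.51 ± 0.16 (SE, edgeR adjusted p = 0.105) with all Yap1KO libraries above all Yap1WT libraries. Tnfrsf11a, the receptor of Tnfsf11, had one of -0.03 ± 0.15 (SE, edgeR adjusted p = 0.937). Fasl had 0 to 2 reads per library and Tnfsf11 0 to 33. Of the 24 genes under the filter, 4 (Cd40lg, Cd70, Tnfrsf13c and Tnfrsf17) were at 0 in every library and 15 were under 1 CPM in every library. Over the whole superfamily, 5 of the 22 tested genes (22.7%) were higher and 0 lower, beside 3.52% higher and 2.34% lower over all genes. These 5 genes (Tnfsf9, Tnfsf10, Tnfrsf23, Tnfsf4 and Eda2r) did not overlap between the groups. Since they were picked by their calls, this adds no separate support. Of the other tested superfamily genes, Fas had groups apart with higher values and Ltbr with lower values. Over all genes tested, groups were apart with higher values for 7.18% and with lower values for 6%. The summed endothelial markers were also higher in Yap1KO than in Yap1WT except that Yap1WT replicate 4, at 662 CPM, was above Yap1KO replicate 1, at 620 CPM. The part of other cell types in these differences was not tested.

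**Figure D4:**
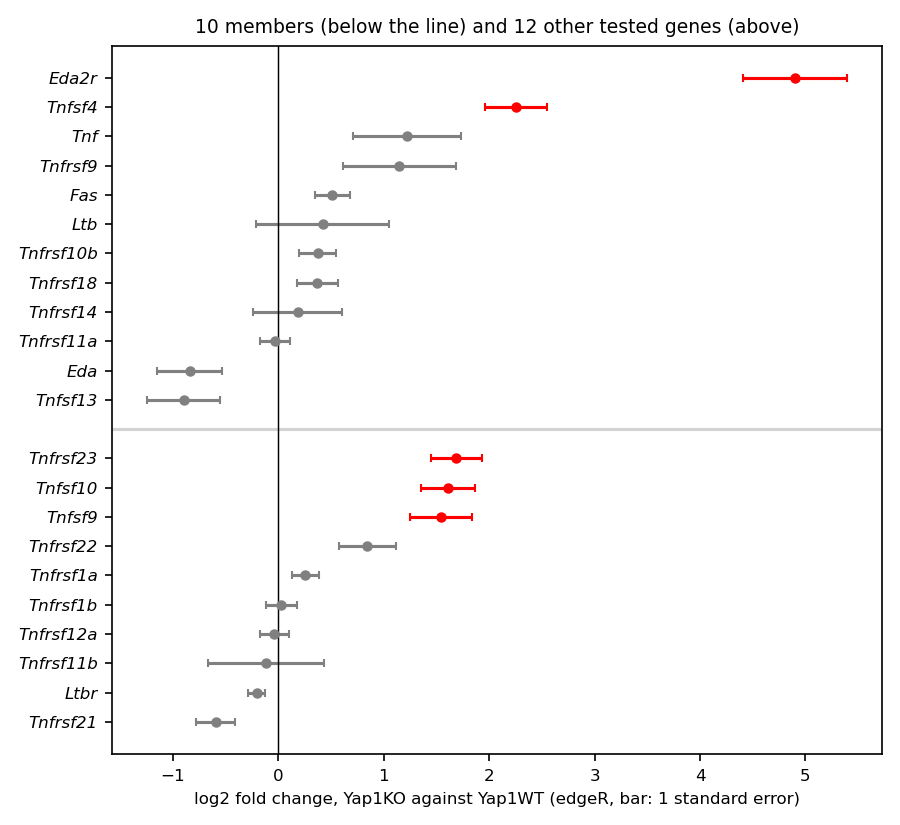
Log2 fold change of Yap1KO against Yap1WT (horizontal axis, edgeR, bar of 1 SE) for the 10 genes (below the grey line) and the 12 other ligands and receptors that passed the filter (above it), with genes called higher in red and genes not called in grey. Eda2r at 4.90 and Tnfsf4 at 2.25 are the farthest to the right, and no gene was called lower.

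Downstream of the receptors, 4 of 55 genes of 3 pathway lists were higher and 2 lower (10.9% called, beside 5.86% of all genes), and no list was tested as a set. The share called was 6.25% for death receptor signaling and 4.55% for TRAF and NF-kB signaling, near that of all genes, and 23.8% for NF-kB targets. Of the 16 genes of death receptor signaling, 1 was higher and 0 lower, with a median log2 fold change of 0.13. The higher gene was Dapk1, a kinase tied to cell death, at 11.5 ± 1.97 CPM in Yap1WT and 21.1 ± 4.38 CPM in Yap1KO (SD, n = 4 each), a log2 fold change of 0.87 ± 0.19 (SE, edgeR adjusted p = 0.026). Of the 22 genes of TRAF and NF-kB signaling, 1 was higher and 0 lower, with a median of 0.16. This was Relb, the NF-kB subunit of the noncanonical arm, at 12.7 ± 1.82 CPM and 21.4 ± 3.02 CPM, with a log2 fold change of 0.76 ± 0.16 (SE, edgeR adjusted p = 0.0232). For both genes all Yap1KO libraries were above all Yap1WT libraries, but the edgeR adjusted p rose to as much as 0.0875 for Dapk1 (each of Yap1WT replicates 1 to 3 and Yap1KO replicates 1 and 4 left out ended the call) and 0.0841 for Relb (Yap1WT replicates 1 to 3 and Yap1KO replicates 1 and 3).

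NF-kB target genes moved in both directions. Of 21 genes, 3 were higher (Cxcl10, Relb and Nfkbie) and 2 lower (Cxcl5 and Ccl20), with a median log2 fold change of 0.18. Cxcl10, a chemokine that attracts activated T cells and is also induced by interferon, was at 1.95 ± 0.82 CPM in Yap1WT and 11.3 ± 3.97 CPM in Yap1KO (SD, n = 4 each), a log2 fold change of 2.54 ± 0.42 (SE, edgeR adjusted p = 0.00655). Nfkbie, an inhibitor of NF-kB, had a log2 fold change of 1.0 ± 0.25 (SE, edgeR adjusted p = 0.0436) and lost its call whichever library was left out (0.0608 to 0.144). The neutrophil chemokine Cxcl5 was at 141, 54.6, 161 and 51.2 CPM in Yap1WT and 29.3, 33.8, 10.8 and 23.7 CPM in Yap1KO. Its groups did not overlap, and it fell by 2.07 on the log2 scale (SE 0.45, edgeR adjusted p = 0.0244). Ccl20, which attracts dendritic cells and lymphocytes, fell by 1.37 on the log2 scale (SE 0.31, edgeR adjusted p = 0.0308). Leaving out Yap1WT replicate 1 or 3 or Yap1KO replicate 1 or 4 raised the adjusted p of Cxcl5 to between 0.0576 and 0.0755. For Ccl20, leaving out Yap1WT replicate 3 or 4 or Yap1KO replicate 1, 2 or 4 raised it to between 0.0631 and 0.0841.

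Interferon-induced genes, a list that holds no TNF superfamily gene, were measured beside them since Tnfsf10 and Cxcl10 are also known as interferon-induced. Of its 25 genes 24 were higher (96%, beside 3.52% of all genes tested), with a median log2 fold change of 3.69. Its summed level ranged from 261 to 339 CPM over Yap1WT and from 1010 to 2160 CPM over Yap1KO. The 4 with the smallest p were the antiviral genes Mx1 (log2 fold change 3.69 ± 0.25), Oas3 (5.93 ± 0.44), Ifit1 (5.48 ± 0.42) and the ubiquitin-like Isg15 (5.27 ± 0.41, SE, edgeR adjusted p = 0.000105 for Mx1 and 0.000174 for the others). The summed level was highest in Yap1KO replicate 3, the library in which Tnfsf10 was also the highest, at 14.2 CPM. It was lowest of the Yap1KO libraries in replicate 2. There Tnfsf10, at 11 CPM, was above its level in Yap1KO replicates 1 and 4 (10.3 and 10.1 CPM). Whether the interferon list bears on the level of Tnfsf10 was not tested.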

How the data were processed

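Bulk RNA of EpCAM+ antral tumor cells was sequenced in 4 Gp130FF;Yap1WT and 4 Gp130FF;Yap1KO mice with paired-end reads of 80 bp. The authors aligned reads to GRCm38/mm10 with Subread and made the deposited counts per RefSeq gene with featureCounts, as whole numbers. The deposited log2 values come from the authors' voom fit with quantile normalization. They were taken as log2 RPKM from the authors' description and from the values, although their header reads FPKM without log. The count table was mapped to the samples by mouse number, and 6 columns without a matching sample were left unused. Entries without a symbol (1277, 0.552% to 0.789% of counts) and 762 pseudogenes were left out.

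Genes with over 0.5 CPM in 6 or more libraries (13508) were tested in R 4.3.3 by the quasi-likelihood F test of edgeR 4.0.16, with TMM factors, Benjamini-Hochberg adjustment and a threshold of 0.05. SE values come from the log2 fold change and its F value. Each library is 1 mouse, so p-values measure the spread between mice. Depth was 18229945 to 77483047 counts per library. The alternatives were limma-voom (limma 3.58.1), DESeq2 1.42.0, other scaling factors, other filters, robust dispersion, replicate and mouse-number blocks, a sex term, limma-trend on the deposited log2 values and leaving out each library. Scripts were tested on simulated data. Windows and motifs were computed in Python 3.11.15, and plots drawn with matplotlib 3.10.9.

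The members and the gene lists were chosen with earlier results of these data known. All members were named, with every called gene of the rest of the superfamily, its 4 uncalled genes with the highest mean CPM, up to 4 called genes per direction of each other list, and the 2 markers of each cell type with the highest mean CPM. Tnfrsf9, Tnfrsf4, Eda, Ltb, Fasl and Tnfsf11, partners of genes so named, and the read ratio of Tnfrsf23 to Tnfrsf22 were chosen after their values were seen.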

Additional observations from a re-analysis of the deposited data

Results flagged for a closer look

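Among 44 groups of 4 libraries (22 tested ligands and receptors in each genotype), 4 held a library far from the others, where chance alone would mark about 1 in 20. Tnfrsf11b was at 32.3 CPM in Yap1WT replicate 1 and at 5.14 to 7.99 CPM in the other three, a gap of 0.895 of the range. Tnfrsf1a was at 176 CPM in Yap1WT replicate 4 against 129 to 137 CPM (0.83 of the range), and in the same library Tnfrsf1b was at 68.5 CPM against 52.4 to 53 CPM (0.963 of the range). That library also had the highest summed endothelial (662 CPM) and fibroblast (1050 CPM) markers of Yap1WT, and the part of these in its receptor levels was not tested. Tnfsf4 was at 4.29 CPM in Yap1WT replicate 2 against 2.18 to 2.48 CPM (0.858 of the range), still below the lowest Yap1KO library at 10.6 CPM.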

How the results depend on the processing

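The calls of Tnfsf9, Tnfsf10, Tnfrsf23, Tnfsf4, Eda2r and Cxcl10 held under all 19 alternatives, and leaving out libraries gave 3 to 3 members called higher and 0 to 1 lower. The member called lower was Tnfrsf21, with DESeq2 (1 member) and without Yap1KO replicate 1. For the 3 pathway lists together, 4 genes were higher and 2 lower. DESeq2 gave 6 higher and 3 lower, the sex term 5 higher and 1 lower, limma-trend 2 higher, the replicate block 1 lower, and leaving out libraries gave 1 to 3 higher and 0 to 2 lower. Over all genes, 476 higher and 316 lower calls became 858 and 587 with DESeq2 and 240 to 480 and 156 to 290 with 1 library left out. With the replicate block they became 755 and 551. Same-numbered libraries correlated at 0.057, 0.387, 0.093 and 0.191, all above 0, and libraries of different number at -0.284 to 0.265. Yap1WT replicates 1, 3 and 4 each correlated best with a Yap1KO library of another number. These correlations do not decide whether the shared numbers are pairs, and the main fit did not take them as pairs. Signs near 0 were not stable. Tnfrsf11b was at 0.20 with the replicate block, 0.009 with the mouse-number block, 0.38 with the sex term, 0.092 with limma-trend and -0.40 to 0.83 with 1 library left out, while leaving out libraries gave -0.093 to 0.13 for Tnfrsf1b and -0.113 to 0.055 for Tnfrsf12a. The call was lost in 13 of the 19 alternatives for Nfkbie, 6 for Dapk1, 6 for Ccl20, 5 for Relb and 5 for Cxcl5. The cause of these changes was not tested. Many of the genes under the filter had no reads in some libraries, and the part of depth in this was not tested.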
